A study of Mus musculus with 6 samples.

Results

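Integrin subunits were examined in mouse pre-B cells that BCR-ABL1 had transformed. BCR-ABL1 is the fusion kinase behind Philadelphia chromosome-positive acute lymphoblastic leukaemia. Genes were chosen by symbol, as all whose symbol begins with Itga or Itgb and that have a probe set naming 1 gene, which gave 31 of the 19938 genes on the array. Of these, 26 encode integrin subunits, 18 alpha and 8 beta, and 5 were set apart: the binding proteins Itgb1bp1, Itgb1bp2 and Itgb3bp, the beta-like gene Itgbl1, and Itgb2l, a relative of Itgb2 with no alpha partner in the pairs used here. The cells came from mice of mixed 129SvEv and C57BL/6J background, with an age of 5 weeks in the labels, and carried Sox4fl/fl, floxed alleles of the transcription factor Sox4, in both groups. The control group (ERT2, 3 samples) had been transduced with a ligand-binding domain of the oestrogen receptor alone. The other group (Cre-ERT2, 3 samples) had received that domain joined to Cre recombinase. RNA was taken 24 h after 4OHT (4-hydroxytamoxifen), which switches Cre-ERT2 on, and each sample was hybridised to 1 Affymetrix array. No sample joins Cre-ERT2 to unfloxed Sox4. Effects of Cre itself and of Sox4 deletion therefore cannot be told apart.

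An integrin is a pair of an alpha and a beta subunit, and a subunit that lacks its partner is generally kept inside the cell. The pair decides which ligand is bound: VLA-4 (alpha 4 with beta 1) binds VCAM1 and fibronectin, alpha 6 with beta 1 binds laminins, and LFA-1 (alpha L with beta 2) binds ICAM molecules on other leukocytes and endothelium. In bone marrow, B-cell progenitors are known to hold on to stroma through VLA-4. The arrays measured RNA, so surface pairs were not observed, and "can form" below means only that RNA of both partners was seen.

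Across the samples, 1 subunit stood out. Itgal, the alpha chain of LFA-1, was 3.13-fold higher in Cre-ERT2 cells, while its partner Itgb2 moved little. Among the other subunits Itga5 and Itgb4 were called slightly higher and Itgam lower, those of Itga5 and Itgam from dim probe sets. Itga4, Itga6, Itgav, Itgb1 and Itgb2, which lay above every background bound described below on all 6 arrays, were not called. In all, 3 of 26 subunits were called higher, where 4.38% of all genes were, and 1 lower, where 3.72% of all genes were. Counting either direction, 4 of 26 were called against 8.1% of all genes. Without any 1 of the Cre-ERT2 replicates 1 subunit, Itgal, was called higher, and without ERT2 replicate 1 or Cre-ERT2 replicate 2 none was called lower, with 2 subunits lower at an unadjusted limma p under 0.05 in each of these fits. "Called" here means a limma Benjamini-Hochberg adjusted p under 0.05 over all 35556 probe sets. The median difference of the 26 subunits was 0.06 on the log2 scale (Cre-ERT2 minus ERT2), beside 0.02 over all genes.

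Several general facts bear on these values. Array medians lay between 273 and 279, and with 3 arrays a group the number of arrays limits the precision. Sox4 itself read from 1237 to 1459 on the control arrays and from 499 to 599 on the Cre-ERT2 arrays. The difference was -1.31 (SE 0.0912, limma adjusted p = 0.000434). The Cre-ERT2 mean was 40.3% of the control mean, and how far Sox4 was deleted was not tested. Pre-B markers were bright, with all 9 measured genes between 2166 and 19083 on every array, and their summed intensity ran from 86223 to 86825 in ERT2 and from 80204 to 81715 in Cre-ERT2 samples. Il7r was the 1 pre-B marker called, with a difference of -0.93. The labels do not state that samples of a group were separate cultures, so p-values measure only how far these samples spread, possibly for technical reasons. In bulk RNA, fewer cells of a type and less RNA per cell cannot be told apart.

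The deposited values carry no detection call, so background was described from genes that pre-B cells are not known to use. Probe sets of 1023 olfactory receptor genes had a 95th percentile of mean intensity at 188 and a 99th percentile at 363. By the first bound, 12 of 26 subunits were above background on all 6 arrays, and by the second 7 were. Both bounds are permissive, because 9 of 27 measured marker genes of T and NK cells, megakaryocytes, erythroid cells and stroma also lay above the first on all arrays. A stricter bound, chosen after the values were seen, was the highest intensity of any of those markers on any array, 600 for Col1a1. Itga4, Itga6, Itgav, Itgb1 and Itgb2 lay above that bound on all 6 arrays, and Itgal on the 3 Cre-ERT2 arrays alone. Myeloid markers were not part of this reference, and among them Lyz2 reached 994 on a Cre-ERT2 array. These subunits sorted the same way at 994. Probe sets differ in affinity, so these bounds sort genes roughly, and no level of a gene is ranked against that of another.

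**Figure D1:**
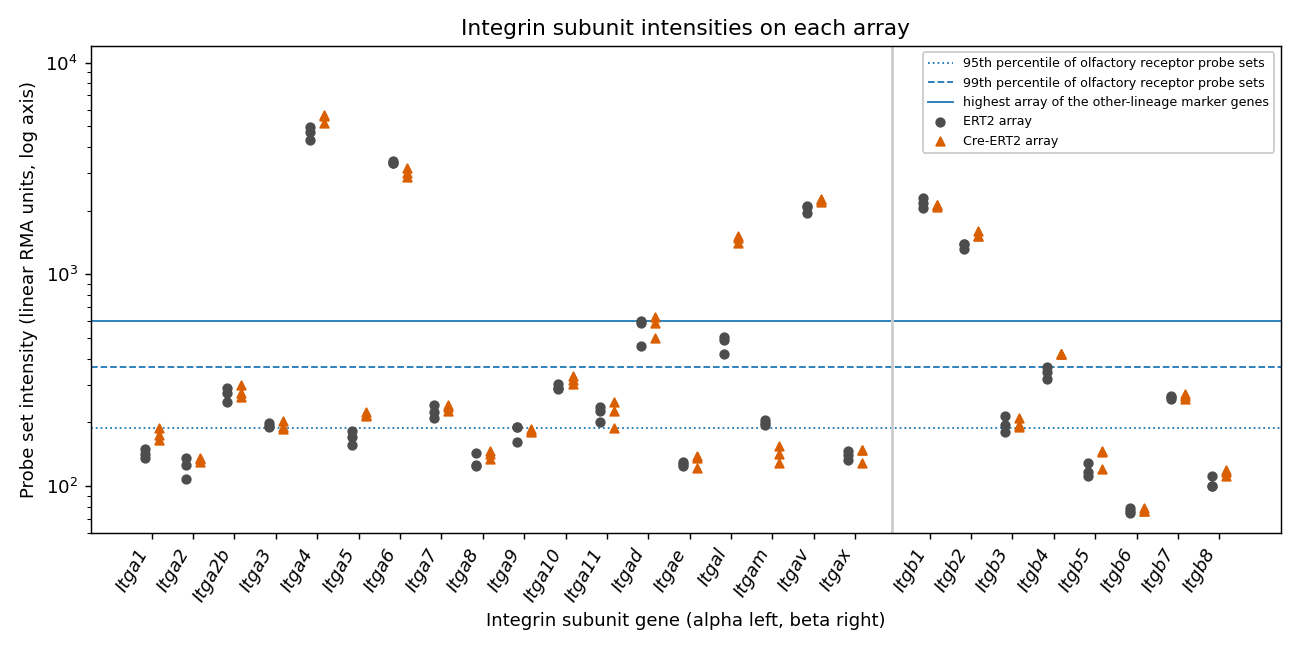
Intensity of the probe set of each of the 26 subunits (log axis) on each of the 3 ERT2 arrays (circles) and 3 Cre-ERT2 arrays (triangles), with lines at 188, 363 and 600 for the background bounds. Itga4, Itga6, Itgav, Itgb1 and Itgb2 lie over the top line in both groups, and Itgal crosses it between groups, from at most 506 to at least 1414.

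The beta 2 family pairs Itgb2 with Itgal, Itgam, Itgax or Itgad. Itgal (probe set 10557591) read 506, 487 and 420 on the ERT2 arrays and 1490, 1511 and 1414 on the Cre-ERT2 arrays. All Cre-ERT2 arrays lay far above all controls, and the groups did not overlap. The group means were 471 ± 45.2 (SD, n = 3) and 1472 ± 50.7 (SD, n = 3). On the log2 scale Itgal rose by 1.64 (SE 0.0799, 95% interval 1.45 to 1.84, limma adjusted p = 0.000115). Permuting the 3 and 3 labels exactly gave a two-sided p of 0.1, below which this design cannot go. Leaving out any 1 array kept Itgal called, with differences from 1.56 to 1.70.

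Itgb2, the chain that all 4 of these alpha subunits need, read 1393, 1386 and 1319 in the controls and 1522, 1604 and 1515 in the Cre-ERT2 samples. The Cre-ERT2 arrays were higher without overlap, but the difference of 0.18 (95% interval 0.06 to 0.30) was not called (limma adjusted p = 0.117). Within an array, log2 Itgal minus log2 Itgb2 changed from a mean of -1.54 ± 0.0986 to -0.07 ± 0.0359 (SD, n = 3 each), a difference of 1.47. The alpha chain of the LFA-1 pair thus changed by more than the beta chain. An exact two-sided permutation of this measure gave p = 0.1, the smallest possible. That p follows from the separation already seen for Itgal and adds no support. When the brighter probe sets alone were tested, Itgb2 was called (adjusted p = 0.0499).

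Itgam encodes the CD11b chain of Mac-1, a receptor of myeloid cells, and moved the opposite way. Its probe set read 198, 204 and 194 in ERT2 samples and 128, 141 and 154 in Cre-ERT2 samples. The controls lay barely above the bound of 188 and the Cre-ERT2 arrays below it, so the signal is close to background in both groups. Itgam fell by 0.49 on the log2 scale (SE 0.076, limma adjusted p = 0.0129) and lost its call without ERT2 replicate 1 (0.0574) or Cre-ERT2 replicate 2 (0.0558). Beside it, the 10 myeloid markers had summed intensities of 1634 to 1650 in ERT2 and 2068 to 2306 in Cre-ERT2 samples. That sum held Lyz2, the lysozyme of macrophages, which rose by 1.40, whereas the other 9 myeloid markers were not called, and the part of myeloid cells in either change was not tested. Itgax, the CD11c chain, lay between 128 and 148 on all arrays, under the lowest bound.

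Itgad, the alpha D chain, gave unlike signals from its 2 probe sets. The brighter read from 458 to 628 and the dimmer from 142 to 180, with overlapping groups and differences of 0.064 and 0.043. Which of the probe sets reports Itgad RNA was not tested, so whether alpha D with beta 2 can form is not settled by these arrays. In the mouse gene order Itgam, Itgax and Itgad follow each other on chromosome 7, and of these Itgam alone was called.

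The beta 1 family is the largest, with 12 alpha partners, and 3 of those pairs had both subunits above the strict bound on all arrays. Itgb1 read 2066, 2298 and 2166 in controls and 2085, 2137 and 2116 in Cre-ERT2 samples. The groups overlapped, and the difference of -0.042 had a 95% interval from -0.17 to 0.09 (limma adjusted p = 0.808). ERT2 replicate 2 was the highest array for this shared beta chain, and without it the difference was -0.002.

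Itga4, the alpha chain of VLA-4 and of the gut-homing receptor with beta 7, read 4717, 4975 and 4333 in controls against 5198, 5673 and 5600. All Cre-ERT2 arrays were above all controls, by 0.23 on the log2 scale (95% interval 0.07 to 0.40), without reaching the threshold (limma adjusted p = 0.134). Itga6, the laminin receptor chain, read 3362, 3421 and 3364 against 2886, 3170 and 3027. Here all Cre-ERT2 arrays were below all controls, with a difference of -0.16 (95% interval -0.29 to -0.04), again not called (limma adjusted p = 0.171). Itgav, whose pairs bind RGD motifs in vitronectin and in latent TGF-beta, read 2082, 2114 and 1946 against 2204, 2246 and 2268. Its difference of 0.13 was not called (limma adjusted p = 0.269), although the groups did not overlap.

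Itga5, the fibronectin receptor chain that pairs with beta 1, read 170, 157 and 182 in controls and 217, 223 and 214 in Cre-ERT2 samples. The controls were under the lowest bound and the Cre-ERT2 arrays just over it. Itga5 rose by 0.36 (SE 0.0652, limma adjusted p = 0.0248), but was no longer called once ERT2 replicate 1 (0.0925) or a single Cre-ERT2 replicate (0.0849 to 0.104) was left out. Itga1, a collagen receptor chain, showed 135, 149 and 142 against 165, 187 and 175, a difference of 0.30 that narrowly missed the threshold (limma adjusted p = 0.0544). All its arrays were under the lowest bound.

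The remaining partners of beta 1, Itga2, Itga3, Itga7, Itga8, Itga9, Itga10 and Itga11, had differences from -0.0091 to 0.12 and overlapping groups. Itga7 and Itga10 were above the bound of 188 on all arrays and none of these genes above 363 on any. Itga2, Itga3, Itga10 and Itga11 are known from epithelium or connective tissue, and Itga7 from muscle.

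Among the other beta chains, Itgb4 and Itgb7 were the ones above the lowest bound on all arrays. Itgb4, which pairs with alpha 6 and anchors epithelial cells to laminin, read 365, 321 and 346 in controls and 420, 421 and 421 in Cre-ERT2 samples. It rose by 0.29 (SE 0.0596, limma adjusted p = 0.0401), between the bounds of 188 and 600, and lost its call in 5 of the 6 fits with an array left out, all but that without ERT2 replicate 1 (0.0595 to 0.151). It also lost it under median centring (0.0597), further quantile normalization (0.0738) and cyclic loess (0.0576). Itgb7, which takes alpha 4 or alpha E, lay between 257 and 271 on all arrays with a difference of 0.011 (95% interval -0.10 to 0.12). Itgae, the alpha E chain that pairs with Itgb7, lay between 121 and 138, under the lowest bound.

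Itgb3, Itgb5, Itgb6 and Itgb8 are partners of Itgav. Itgb3 straddled the lowest bound, from 180 to 215, and the other 3 were under it on all arrays, Itgb6 at 74.6 to 79. None was called, with differences from 0.0098 to 0.20, and the groups overlapped for all but Itgb8. Itga2b, the platelet chain that pairs with Itgb3, read from 249 to 299 with overlapping groups. Of 4 measured megakaryocyte and platelet markers none was called (limma; 0 at an unadjusted p under 0.05), and they summed to between 599 and 628 over the 6 arrays. Gp9 (276 to 297) and Gp5 (221 to 252) were above the bound of 188 on all arrays, and Pf4 and Ppbp below it on all arrays. The part of such cells in the Itga2b signal was not tested.

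**Figure D2:**
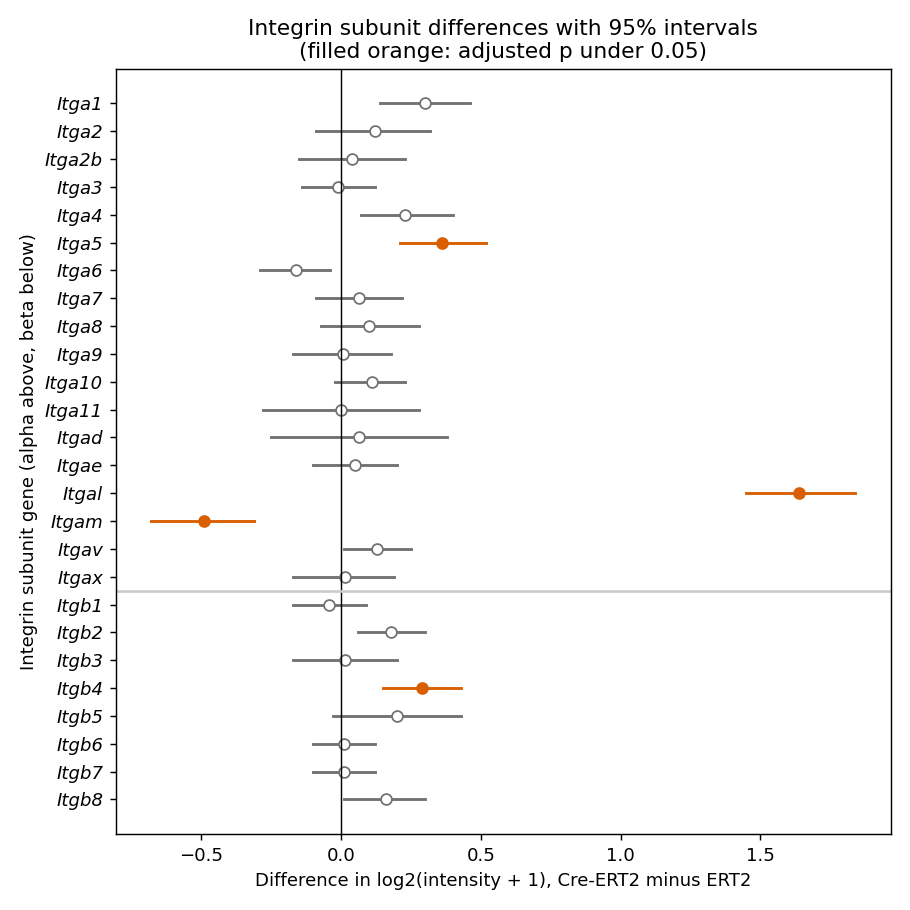
Difference in log2(intensity + 1) between Cre-ERT2 and ERT2 samples for the 26 subunits, with 95% intervals from limma; filled orange points are called. Itgal stands at 1.64, apart from all other subunits, which lie between -0.49 and 0.36.

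The groups did not overlap for 10 of the 26 subunits, 8 higher and 2 lower, where 28.3% of all genes had such groups. Among the 5 matches that are not subunits limma called none, and 0 had an unadjusted p under 0.05, where 20.1% of all genes did. Itgb1bp1 (ICAP-1), which binds the tail of beta 1, read from 1141 to 1225 in controls and from 1234 to 1300 in Cre-ERT2 samples, a difference of 0.10 (limma adjusted p = 0.402). The differences of Itgb1bp2, Itgb3bp, Itgbl1 and Itgb2l lay between -0.01 and 0.10, with overlapping groups.

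Of 24 known alpha-beta pairs, 9 had both subunits above the bound of 188 on all 6 arrays and 5 above 363. Above the strict bound of 600, RNA of both partners was seen for 3 pairs in both groups: alpha 4, alpha 6 and alpha V with beta 1. In Cre-ERT2 samples alpha L with beta 2 made a total of 4, since Itgal was under the bound on the control arrays. Itgal in controls was nevertheless above 363 on all arrays, so LFA-1 was not shown to be lacking there. A called subunit was part of 4 pairs: alpha L and alpha M with beta 2, alpha 5 with beta 1, and alpha 6 with beta 4. In none of these pairs were both partners called.

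**Figure D3:**
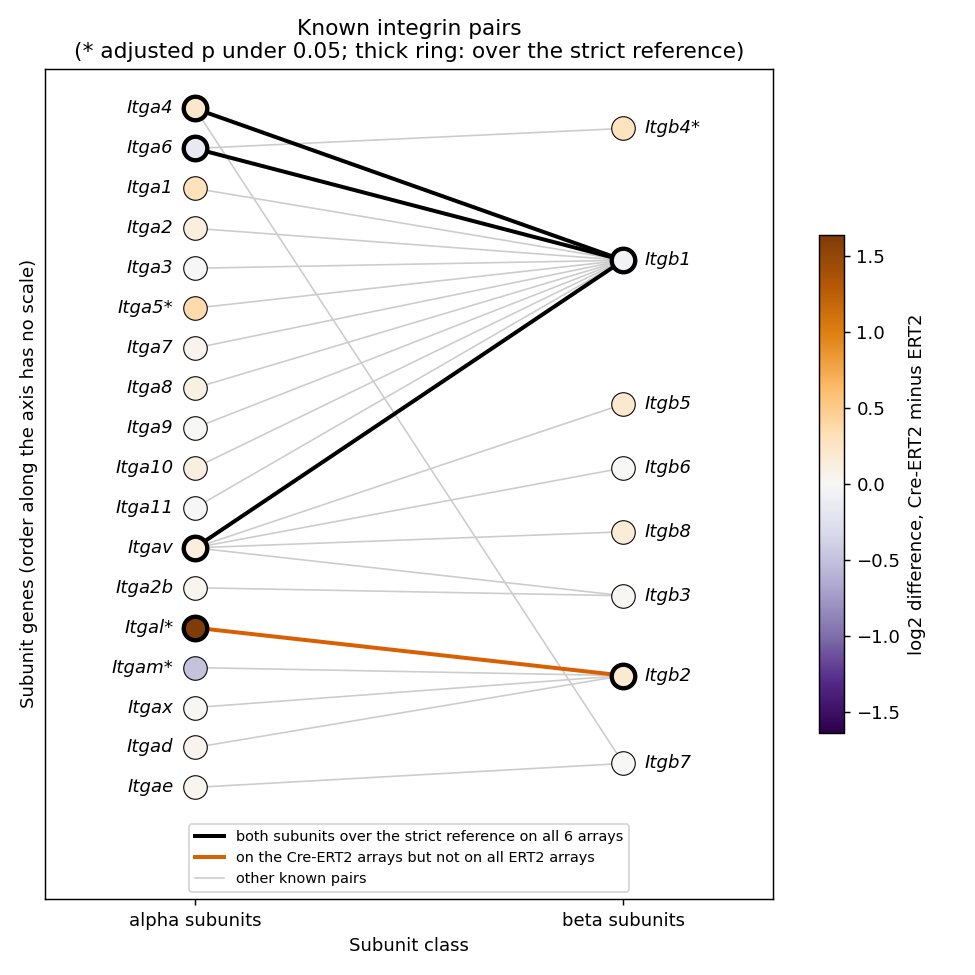
The 24 known pairs as lines from alpha genes (left) to beta genes (right), coloured by the log2 difference of each gene, with black lines where both subunits exceed 600 on all arrays and an orange line where they do so on Cre-ERT2 but not on all ERT2 arrays. The black lines are the 3 pairs of Itgb1 with Itga4, Itga6 and Itgav, and the orange line joins Itgal to Itgb2.

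As the floxed gene encodes a Sox factor, promoters were read for the Sox-type words ACAAAG and ACAATG, on both strands. ACAAAG is also part of the word bound by TCF and LEF factors. RefSeq promoters (GRCm38.p6, 250 bases before to 50 after a start site) matched 18 of the 26 subunits with 20 windows. Itgal, Itgb2, Itgb4, Itga6, Itga7, Itgad, Itgae and Itgb3 were not matched. A word was present in 3 of 20 windows, those of Itgb1, Itga8 and the downstream start of Itga3, where 28.6% of all 32851 promoters of 300 bases hold one. The called genes with a window, Itga5 and Itgam, are shown because they changed, and Itgb1 because it holds a word and is the beta chain of the 3 pairs seen in both groups. Itga5 lies at chr15:103366742-103367041 (minus strand), Itgam at chr7:128062390-128062689 (plus strand) and Itgb1 at chr8:128685404-128685703 (plus strand). Capitals mark the word, which on Itgb1 is on the opposite strand and begins 85 bases before the start site. A match is a description of letters and not a binding site.
Itga5: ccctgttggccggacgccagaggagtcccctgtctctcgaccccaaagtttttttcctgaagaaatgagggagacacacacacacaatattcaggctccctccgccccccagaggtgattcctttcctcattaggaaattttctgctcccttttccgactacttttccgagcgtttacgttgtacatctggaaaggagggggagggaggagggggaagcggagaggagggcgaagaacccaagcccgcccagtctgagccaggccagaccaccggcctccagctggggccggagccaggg
Itgam: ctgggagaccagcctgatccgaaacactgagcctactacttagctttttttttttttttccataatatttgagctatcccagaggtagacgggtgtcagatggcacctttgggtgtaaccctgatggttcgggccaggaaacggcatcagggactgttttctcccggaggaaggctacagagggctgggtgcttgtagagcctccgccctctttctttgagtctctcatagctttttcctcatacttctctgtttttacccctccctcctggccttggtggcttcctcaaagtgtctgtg
Itgb1: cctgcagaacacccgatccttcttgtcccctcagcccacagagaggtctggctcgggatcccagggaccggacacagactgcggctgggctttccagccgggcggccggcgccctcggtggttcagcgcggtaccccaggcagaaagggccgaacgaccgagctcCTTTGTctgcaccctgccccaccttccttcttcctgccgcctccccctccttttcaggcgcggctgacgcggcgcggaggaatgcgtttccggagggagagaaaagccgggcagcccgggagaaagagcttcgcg

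Genes next to the called subunits were set beside them, a step added after the values were seen. Of the 6 nearest measured protein-coding neighbours of Itgal, 3 on each side, limma called none, with differences from -0.011 to 0.27 and 2 at an unadjusted p under 0.05. None of the 6 around Itgb4 was called either, with 4 at an unadjusted p under 0.05. Over all genes 8.1% were called and 20.1% had such an unadjusted p. Around Itga5, 1 of 6 neighbours was called and 2 had an unadjusted limma p under 0.05. Around Itgam, 1 of 6 was called and 1 had such an unadjusted p. The called neighbour of Itga5 was Zfp385a, a zinc-finger gene, which rose by 0.49 (limma adjusted p = 0.00464). That of Itgam was Pycard, the inflammasome adaptor ASC, which fell by 0.39 (limma adjusted p = 0.0487).

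Among genes of integrin ligands the called changes were those of Cdh1, Ccn3 and Fn1. Of 40 measured ligand genes 1 was called higher and 2 lower (median 0.02), against 4.38% and 3.72% of all genes, so the count is near the background. Cdh1 encodes E-cadherin, which links epithelial cells and is the ligand of alpha E with beta 7. It read 314, 332 and 334 in controls and 1139, 1137 and 1020 in Cre-ERT2 samples, a rise of 1.74 (SE 0.063, limma adjusted p = 4.12e-05), while both chains of its integrin receptor were dim and not called. Ccn3, a matricellular protein listed under its older name Nov, read 4896, 4554 and 4325 against 1302, 1338 and 1284. It fell by 1.81 (SE 0.06, limma adjusted p = 3.58e-05), to 28.5% of the control mean. Fn1, fibronectin, the ligand of alpha 4 and alpha 5 with beta 1, fell by 0.41 from a dim level of 229 to 235 (limma adjusted p = 0.0338). That call was lost without any array other than Cre-ERT2 replicate 1 (0.0768 to 0.132).

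The ICAM ligands of LFA-1 were not called. Icam1 read from 1170 to 1272 in controls and from 1398 to 1472 in Cre-ERT2 samples, a difference of 0.21 without overlap (limma adjusted p = 0.0943). Icam2 differed by -0.12 with overlapping groups. Vcam1, the ligand of VLA-4 on stromal cells, lay between 97 and 112 in both groups, under the lowest bound. Tgfb1, whose latent form is a ligand of alpha V integrins, differed by 0.19 (limma adjusted p = 0.055).

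None of 21 listed genes that activate integrins from inside the cell or otherwise regulate that step was called by limma, against 8.1% of all genes. Of the 21, 3 had an unadjusted limma p under 0.05, against 20.1%. Talin (Tln1) and kindlin-3 (Fermt3), the adaptors that bind beta tails in leukocytes, differed by 0.076 and 0.16, with limma adjusted p of 0.606 and 0.213. Flna, filamin A, which competes with talin for beta tails, read from 2058 to 2300 in controls and from 1750 to 1900 in Cre-ERT2 samples, a difference of -0.26 that was not called (limma adjusted p = 0.0744). Tln2 read 331, 339 and 346 in controls and 377, 373 and 390 in Cre-ERT2 samples. Its difference of 0.17 was not called either (limma adjusted p = 0.117).

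Of 29 measured focal adhesion kinases and adaptors 4 were called higher and 1 lower (median 0.04), beside 4.38% and 3.72% of all genes. Vcl, vinculin, which ties talin to actin, read 852, 906 and 817 against 1106, 1170 and 1131 and rose by 0.40 (limma adjusted p = 0.00884). Actn1, the actin cross-linker alpha-actinin, read 529, 569 and 508 against 354, 358 and 375 and fell by 0.56 (limma adjusted p = 0.00267). Both kept their calls without any 1 array. Tns3, a tensin, rose by 0.38 (limma adjusted p = 0.0217), but 4 of the 6 fits with an array left out ended the call: those without ERT2 replicate 1 or 3 and without Cre-ERT2 replicate 1 or 2 (0.0794 to 0.0909). Ptk2b and Pxn, the kinase Pyk2 and its partner paxillin, each rose by 0.26 (limma adjusted p = 0.0381 and 0.0495), and neither was called when a single array, whichever it was, was left out (0.072 to 0.163) or after median centring (0.0539 and 0.0628). Ptk2, Lyn and Nedd9 were not analysed here.

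Of 14 tetraspanins and other membrane partners of integrins 3 were called higher and 1 lower (median 0.06), beside 4.38% and 3.72% of all genes. Cd82, Tspan32 and Cd47 rose by 0.44, 0.35 and 0.26, and Cd53 fell by 0.28. Cd82, Tspan32 and Cd53 are tetraspanins of leukocytes, and Cd47 is a partner of beta 3 integrins. The second probe set of Cd47 differed by 0.25 without a call (limma adjusted p = 0.0739). The 4 calls were lost in several fits with an array left out: Cd82 with ERT2 replicate 1 or a single Cre-ERT2 replicate removed (0.0685 to 0.0865), Tspan32 without Cre-ERT2 replicate 2 or 3 (0.0543 to 0.0586), Cd47 with each array removed except ERT2 replicate 2 (0.0688 to 0.12) and Cd53 without any 1 of the 6 arrays (0.0555 to 0.107). Cd81, the partner of alpha 4 integrin in B cells, lay between 8358 and 8753 with a difference of 0.03.

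Other adhesion receptors of B-lineage cells were called in both directions, with 1 of 14 called higher and 3 lower (median -0.0024), beside 4.38% and 3.72% of all genes. Cd44, the hyaluronan receptor, read 650, 763 and 650 in controls and 196, 190 and 185 in Cre-ERT2 samples. Cd2 fell by 0.62 and Cd22 by 0.41, with limma adjusted p of 0.000634 and 0.00628. Pecam1, a homophilic adhesion molecule, rose by 0.33 (limma adjusted p = 0.0162) and missed the threshold when ERT2 replicate 1 or a single Cre-ERT2 replicate was removed (0.0516 to 0.0801).

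**Figure D4:**
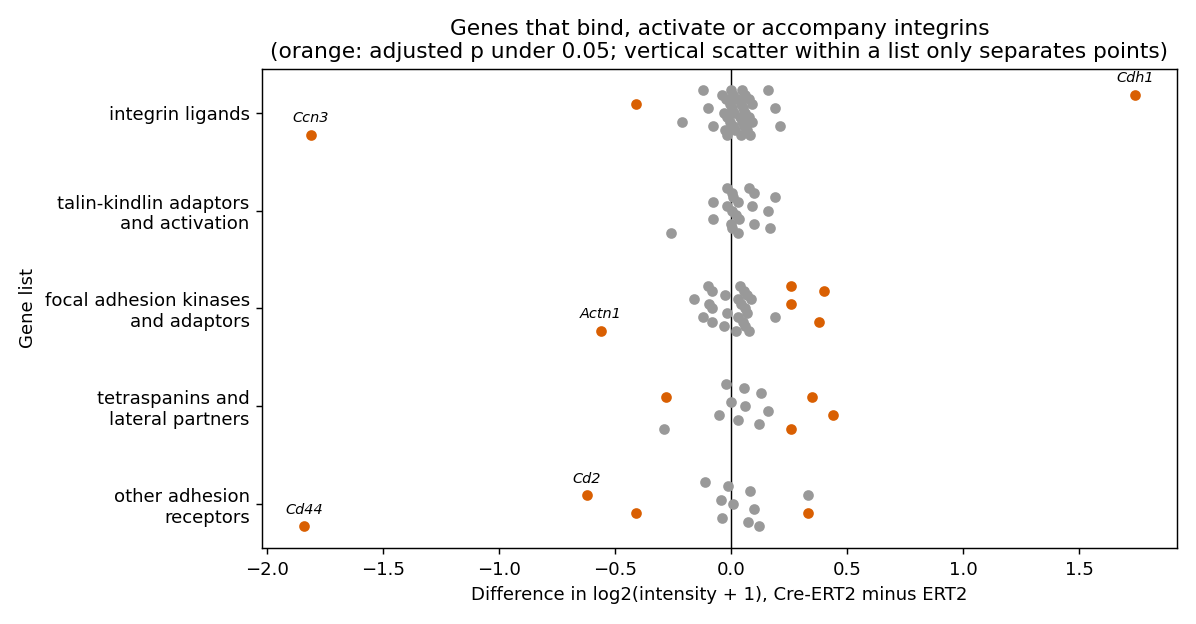
Difference in log2(intensity + 1) between Cre-ERT2 and ERT2 samples for the measured genes of 5 lists that bind, regulate or accompany integrins. Orange points are called and vertical scatter within a list only separates points. Cdh1 at 1.74 and Ccn3 at -1.81 are the extremes among ligands, and no gene of the talin and kindlin list is called.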

How the data were processed

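Total RNA of 6 samples was hybridised to Affymetrix arrays. The authors made the deposited intensity values with RMA (background correction, quantile normalization between arrays, probe-set summary), per the submitters' processing notes; the sources used here do not give the software version or annotation. RMA gives log2 values, but the deposited intensities run from 6.27 to 26714, so they are on a linear scale and log2(intensity + 1) was used. Quantile normalization would hide a shift of all genes.

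The probe table names 1 gene for 21789 of 35556 probe sets, and the probe set with the highest mean stood for a gene. Groups were compared with limma 3.58.1 in R 4.3.3 (lmFit, eBayes, no covariates), with Benjamini-Hochberg adjusted p-values across every probe set, called under 0.05. The calling was tested on simulated data with independent noise for each probe set, so errors shared within an array were not covered. Errors are limma's moderated SE. No coordinates of array features are given, since their build is not stated. Members, lists, known pairs and the naming rule (all matches, and the called genes of each list) were chosen with earlier results of these data known; Tln1, Fermt3, Flna, Icam1, Icam2, Vcam1, Tgfb1 and Cd81 were named after their values were seen. Alternatives were 13 other settings and each of 6 arrays left out.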

Additional observations from a re-analysis of the deposited data

How the results depend on the processing

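Itgal and Sox4 kept direction and call under all 19 alternatives (Itgal 1.56 to 1.70). Subunits called higher numbered 5 with estimated array weights, where Itga1 (limma adjusted p = 0.00951) and Itga4 (0.0295) were added. They numbered 4 with probe sets naming 1 gene alone, where Itga1 was added (limma adjusted p = 0.0134). Median centring, further quantile normalization and cyclic loess each gave 2, Itga5 and Itgal. The number was 1 with a minimum fold of 1.5 and 1 to 2 without single arrays. Subunits called lower numbered 0 among the brighter probe sets, where Itgam was not tested, 0 with a minimum fold of 1.5 and 0 to 1 without single arrays (limma; at an unadjusted p under 0.05, 1 among the brighter, 0 with the minimum fold). Subunits above background numbered 7 at the 99th percentile of olfactory receptor probe sets and 5 at the highest other-lineage marker, a bound chosen after seeing the data; both bounds are stricter by construction. For the other counts the cause was not tested.

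With the replicate number as a replicate block 2 subunits were called higher (Itgal and Itga1) and 1 lower (Itgam); Itga5 (0.0687) and Itgb4 (0.0783) were not called. Deviations of same-numbered samples correlated at 0.2048, 0.3441 and -0.0491 for numbers 1, 2 and 3. Deviations from a mean of 3 arrays are tied to each other, so this check cannot show whether the numbers are pairs. The main fit did not take them as pairs. Not every sample correlated best with its own number: Cre-ERT2 replicate 1 did so with ERT2 replicate 3 (0.3253) and Cre-ERT2 replicate 3 with ERT2 replicate 2 (0.1396).

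Near-zero differences that were never called changed sign, and the cause was not tested. Under median centring Itga9 was -0.0033 and Itgb6 -0.0015. Under a further quantile normalization Itga9 was -0.0098, Itgax -0.013, Itgb3 -2.0e-05, Itgb6 -0.016, Itgb7 -6.8e-05 and Itgbl1 -0.001. Under cyclic loess Itga9 was -0.012, Itgax -0.0047, Itgb3 -0.0057, Itgb6 -0.006, Itgb7 -0.014 and Itgb1bp2 -0.007. With array weights Itga9 was -0.046, Itgad -0.0011, Itgax -0.0048, Itgb1 0.0049, Itgb3 -0.013 and Itgb3bp -6.3e-05. Without single arrays the ranges were -0.091 to 0.11 for Itga11, -0.019 to 0.093 for Itga2b, -0.049 to 0.018 for Itga3, -0.068 to 0.046 for Itga9, -0.06 to 0.16 for Itgad and -0.023 to 0.083 for Itgax. They were -0.046 to 0.081 for Itgb3, -0.009 to 0.032 for Itgb6, -0.0058 to 0.032 for Itgb7, -0.0046 to 0.066 for Itgb1bp2, -0.073 to 0.043 for Itgb2l and -0.044 to 0.12 for Itgbl1. Signal near background limits what the dim subunits can show.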
